A study of Mus musculus with 22 samples.

Results

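The 35 imprinted genes described here are a list of known imprinted loci outside the H19 and Igf2 pair. They are among 24421 gene symbols counted in every library and were chosen with earlier results of these data known. By their usual annotation 16 are expressed from the maternal copy and 18 from the paternal copy, and Gnas has transcripts of both kinds. They fall into 17 clusters. Each was followed in bladder organoids, epithelial cultures grown in 3 dimensions, that were knocked out (KO) or wild type (WT) for Arid1a, a gene for a subunit of the BAF chromatin remodelling complex that binds DNA. Primary mouse bladder urothelial organoids gave 18 libraries: KO and WT total RNA, KO and WT polysome fractions, and KO and WT subpolysome fractions from a 10 to 50% sucrose gradient, with 3 libraries in each of the 6 groups. Isogenic bladder cancer organoids gave 4 total RNA libraries, 2 labelled KO and 2 labelled WT. The labels say neither how Arid1a was deleted, nor the age and sex of the animals, nor whether replicates were separate cultures or animals. The p-values therefore rest on variation from library to library, part of which could be technical.

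Genomic imprinting is the expression of a gene from the copy inherited from a single parent. It is set in the germ line by DNA methylation at control regions, kept after fertilization by DNA methyltransferases and by ZFP57 with TRIM28, and read out along clusters through insulators and long noncoding RNAs such as Kcnq1ot1 and Airn. Many imprinted genes act on fetal growth, the placenta and brain, with paternally expressed genes often promoting growth and maternally expressed genes often restraining it. The counts are per gene symbol and not split by allele or transcript, so which copy was transcribed was not measured. The words "maternal" and "paternal" below name the known expressed copy, assigned to a gene as a whole. Transcripts of a gene that differ in their expressed copy would be summed. For some members, such as Ube3a and Trappc9, bias to a single copy is known mainly from the brain.

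Depth was 66227600 to 74605489 counts in total RNA, 64911189 to 76594655 in polysomes, 39245248 to 51628570 in subpolysomes and 48429672 to 55431426 in the cancer libraries. Levels are CPM (counts per 1000000 of the library's own total), unless given per kb of merged exon. The deleted part of Arid1a is not given, so its level is only a partial check of the labels. It had 93.2, 93.8 and 106 CPM in KO total RNA, against 139, 156 and 141 CPM in WT total RNA. In polysomes it averaged 22.3 ± 6.73 CPM in KO and 30.3 ± 9.055 CPM in WT (SD, n = 3 each). In subpolysomes it averaged 43.3 ± 4.295 CPM in KO and 38.8 ± 4.69 CPM in WT. The KO and WT groups overlapped in both fractions. With same-numbered polysome libraries as a block, Arid1a was lower in KO polysomes by edgeR's test (log2 -0.49, adjusted p = 0.00056). Without the block its adjusted p was 0.0817. In the cancer libraries it had 201 and 64.1 CPM in those labelled KO, against 79.2 and 228 CPM in those labelled WT, so the counts went against the labels of some of these 4 libraries. All 12 bladder urothelium markers were above 1 CPM in at least 1 library of every primary group. In the cancer libraries Upk1a, Upk2 and Upk3a, defining surface proteins of the urothelium, were under 1 CPM throughout.

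Promoter windows describe the sequence of some of the members on which the results turn. Cdkn1c, Peg10, Sgce, Kcnq1, Nap1l4, Trappc9 and Impact had none. RefSeq windows of 300 bases (250 before to 50 after the transcription start, build GRCm38.p6) were available for 28 of the 35 members, 40 windows in all. They held a median of 16.5 CpG dinucleotides, against 7 over all 32851 windows, and 32 of the 40 held more than 7. The hexamer TGCCGC, the core of the motif bound by ZFP57, lay on either strand of 12 of the 40 windows in 11 members, and in 11.6% of all windows. This hexamer contains a CpG, and the comparison was not matched for CpG content. The letters TATAAA lay on either strand of 9 member windows and of 13.6% of all windows. The 2 letter strings do not overlap, several windows belong to the same gene and share bases, and a match is a description of letters.

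The windows below belong to Mcts2 and its host H13, which changed in opposite directions in KO, to Mest and Peg3, paternally expressed genes that rose, and to Kcnq1ot1, Ascl2 and Phlda2 of the Kcnq1 cluster. Each is printed 5′ to 3′ on the gene's strand, with TGCCGC or its reverse complement GCGGCA and TATAAA in capitals.
Mcts2 promoter, chr2:152686898-152687197, plus strand, 25 CpG: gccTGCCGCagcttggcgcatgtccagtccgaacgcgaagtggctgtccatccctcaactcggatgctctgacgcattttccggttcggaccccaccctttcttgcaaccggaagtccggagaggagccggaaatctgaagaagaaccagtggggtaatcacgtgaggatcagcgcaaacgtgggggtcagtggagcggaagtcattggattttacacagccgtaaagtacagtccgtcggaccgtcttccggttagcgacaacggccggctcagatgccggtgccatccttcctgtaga
H13 promoter, chr2:152669211-152669510, plus strand, 21 CpG: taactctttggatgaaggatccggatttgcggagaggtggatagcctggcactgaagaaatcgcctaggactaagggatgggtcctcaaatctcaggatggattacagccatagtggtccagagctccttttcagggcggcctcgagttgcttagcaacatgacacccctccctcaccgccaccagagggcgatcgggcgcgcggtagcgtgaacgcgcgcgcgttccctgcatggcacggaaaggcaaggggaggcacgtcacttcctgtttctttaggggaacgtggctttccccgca
Mest promoter, chr6:30737800-30738099, plus strand, 17 CpG: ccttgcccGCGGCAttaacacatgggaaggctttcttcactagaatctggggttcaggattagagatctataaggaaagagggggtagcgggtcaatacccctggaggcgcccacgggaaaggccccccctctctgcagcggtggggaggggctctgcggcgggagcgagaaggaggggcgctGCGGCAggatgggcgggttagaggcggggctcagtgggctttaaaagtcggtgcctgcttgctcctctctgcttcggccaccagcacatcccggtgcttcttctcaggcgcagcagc
Peg3 promoter, chr7:6730370-6730669, minus strand, 13 CpG: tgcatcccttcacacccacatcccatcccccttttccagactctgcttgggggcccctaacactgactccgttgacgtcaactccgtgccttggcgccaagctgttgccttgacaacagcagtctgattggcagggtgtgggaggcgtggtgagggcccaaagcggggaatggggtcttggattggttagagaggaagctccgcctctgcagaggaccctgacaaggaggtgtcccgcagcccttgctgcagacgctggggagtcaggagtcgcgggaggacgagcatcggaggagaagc
Kcnq1ot1 promoter, chr7:143296498-143296797, minus strand, 9 CpG: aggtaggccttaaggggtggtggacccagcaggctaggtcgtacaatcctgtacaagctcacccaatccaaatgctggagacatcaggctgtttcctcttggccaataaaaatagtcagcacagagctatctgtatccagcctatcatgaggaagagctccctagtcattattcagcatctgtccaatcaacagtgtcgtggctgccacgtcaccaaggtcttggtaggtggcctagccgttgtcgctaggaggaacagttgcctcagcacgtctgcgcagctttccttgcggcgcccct
Ascl2 promoter, chr7:142969215-142969514, minus strand, 23 CpG: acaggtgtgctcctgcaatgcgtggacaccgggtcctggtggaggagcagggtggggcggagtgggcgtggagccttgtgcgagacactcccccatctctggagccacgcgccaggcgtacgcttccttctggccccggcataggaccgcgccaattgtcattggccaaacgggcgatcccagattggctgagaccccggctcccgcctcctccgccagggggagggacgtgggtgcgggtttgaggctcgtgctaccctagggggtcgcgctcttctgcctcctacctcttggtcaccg
Phlda2 promoter, chr7:143502475-143502774, minus strand, 26 CpG: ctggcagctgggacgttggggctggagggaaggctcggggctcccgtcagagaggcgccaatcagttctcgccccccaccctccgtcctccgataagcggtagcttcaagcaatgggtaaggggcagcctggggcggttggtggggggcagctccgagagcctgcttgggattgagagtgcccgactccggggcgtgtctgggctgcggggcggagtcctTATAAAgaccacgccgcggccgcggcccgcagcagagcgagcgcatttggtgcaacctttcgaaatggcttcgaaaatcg
The Mcts2 window has 1 TGCCGC match and the Mest window 2, both in the reverse orientation. Phlda2 alone of these 7 windows has TATAAA.

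The members spanned the whole range of expression. In organoid total RNA 13 averaged at least 10 CPM, 8 lay between 1 and 10 CPM and 14 were under 1 CPM. Per kb of exon, the order in WT total RNA began with Gnas, the stimulatory G protein alpha subunit (118.5 CPM per kb), Nap1l4, a histone chaperone (47.4), Copg2, a COPI coat subunit (19.3), H13, the signal peptide peptidase (14.8), Mcts2, a retrogene copy of the translation factor Mcts1 (14.3), and Slc22a18, a membrane transporter (13.4). H13, Mcts2 and Slc22a18 were close neighbours in this order. In KO total RNA Mcts2 stood at rank 3 with 26.2 CPM per kb, and H13 at rank 6 with 10.3 CPM per kb.

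At the low end, Snrpn, a spliceosome protein of the Prader-Willi region, had no count in any of the 22 libraries. Snurf, which shares 216 exon bases with it, had none either. Nap1l5 had 1 count, Meg3 4, Zim1 6 and Rian 13, summed over all libraries. The maternal long noncoding RNAs Meg3 and Rian and their paternal neighbour Dlk1 (27 counts), a Notch-like growth regulator, were thus near absent at this depth, as was the deubiquitinase gene Usp29 with 31 counts. Grb10, a maternally expressed inhibitor of insulin and IGF receptor signalling, had 53 counts, of which 29 were in the 3 KO total RNA libraries and 1 in the 3 WT total RNA libraries. It was under the filter on low counts and was not tested.

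**Figure D1:**
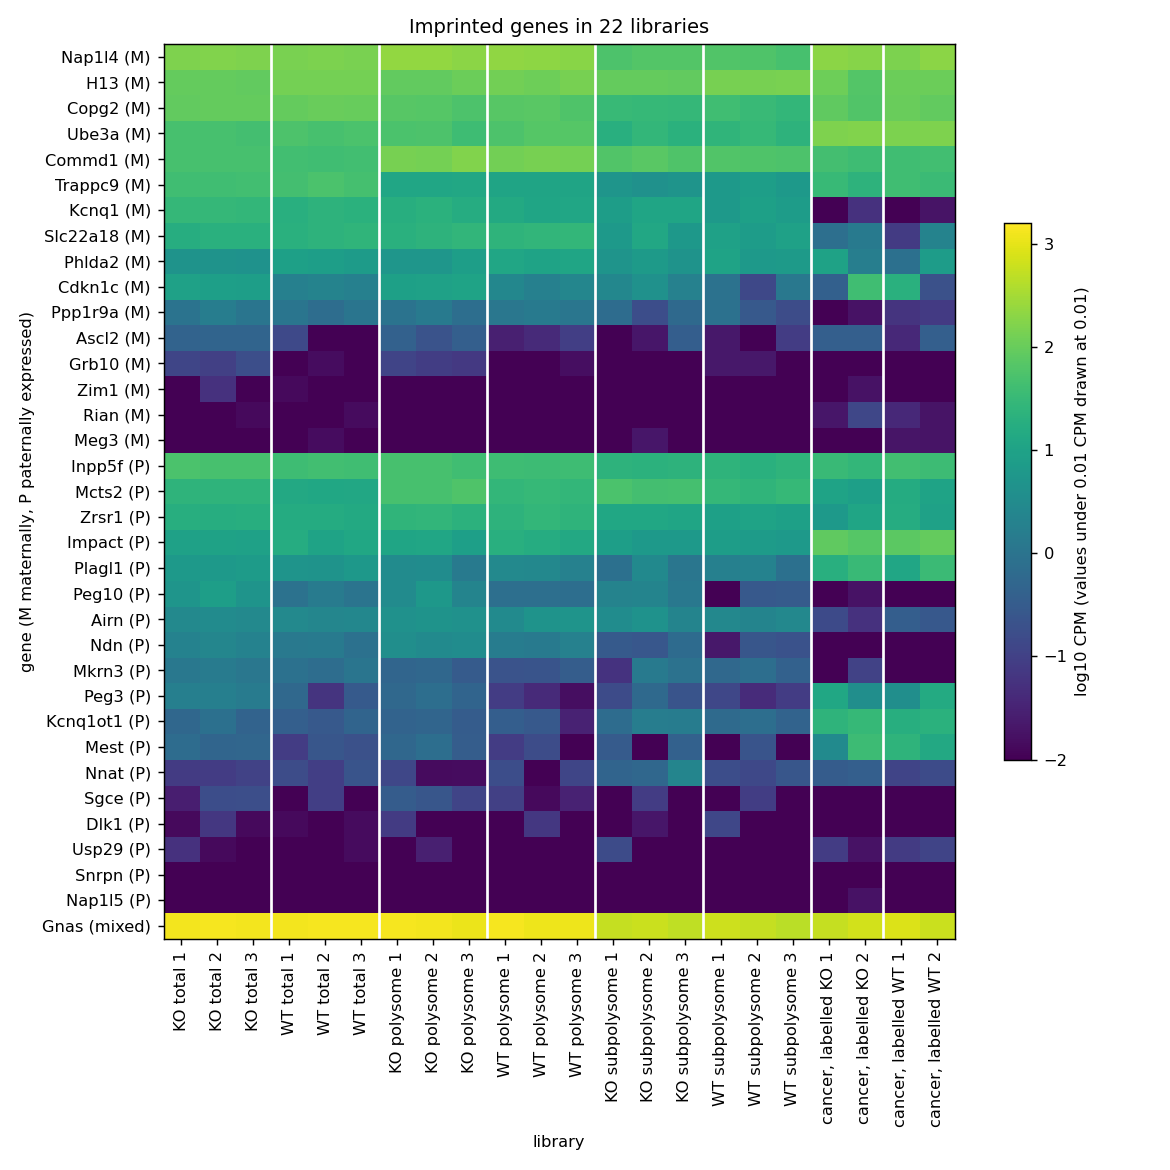
CPM of the 35 imprinted genes in each of the 22 libraries on a log10 colour scale (values under 0.01 CPM drawn at 0.01), rows ordered by known expressed copy and by mean level in organoid total RNA. Gnas, Nap1l4 and H13 were high in every library, Snrpn had no counts, and Kcnq1, Ndn and Peg10 were near or at 0 in the 4 cancer libraries, where Kcnq1ot1, Mest and Impact were high.

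In KO against WT organoid total RNA, more of the paternally expressed genes tested were higher than lower, and maternally expressed genes moved in both directions. Of 35 members 25 were tested, 8 were under the filter on low counts and 2 had no counts. By edgeR's quasi-likelihood test with Benjamini-Hochberg adjustment over 13198 genes, 11 of the 25 were higher in KO and 7 lower, against 27.0% higher and 26.3% lower of all genes tested. All 3 KO libraries lay above all 3 WT libraries for 14 members and below them for 5, against 33.3% and 27.8% of all genes. Of the 12 paternally expressed members tested 7 were higher and 1, Impact, was lower. Of the 12 maternally expressed members tested 4 were higher and 6 lower. The members were chosen with earlier results of these data known, so these counts are a description. These counts depended on the fit. When all primary libraries were fitted together, the paternal members Mest, Ndn, Inpp5f and Plagl1 no longer passed as higher, while Peg10, Peg3 and Mcts2 did. Of the maternal members, Kcnq1 and Commd1 no longer passed as higher, nor Slc22a18, Trappc9, Ube3a and Copg2 as lower. The median log2 difference was 0.59 over the paternal members, -0.0066 over the maternal members, 0.29 over the 25 and 0.0026 over all genes. Ascl2 passed the filter only through its KO libraries, so it had to differ. It is nevertheless counted among the 11 members higher, the 4 maternal members higher and the 14 with KO libraries above WT. In bulk RNA, fewer cells of a type and less RNA per cell cannot be told apart.

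Cdkn1c, the CDK inhibitor p57 (chr7:143458339-143461050, minus strand, GRCm38, GENCODE M21), had 9.26, 8.81 and 8.23 CPM in KO total RNA, against 1.83, 2.07 and 1.85 CPM in WT total RNA. The groups were far apart and the replicates close together. The log2 difference was 2.17 (SE 0.12, adjusted p = 5.67e-08, edgeR), a rise of 4.51 times. Ascl2, a basic helix-loop-helix factor of trophoblast and intestinal stem cells in the same cluster, had 0.446, 0.485 and 0.469 CPM in KO, against 0.138, 0 and 0 CPM in WT. Its 103 KO counts stood against 10 WT counts, all of the latter in WT replicate 1 (fitted log2 3.23, SE 0.76). These Ascl2 values are given as a description, because Ascl2 passed the filter only through KO.

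Peg10, a retrotransposon-derived gag-pol gene needed for the placenta in mouse (chr6:4747306-4760517, plus strand), had 5.18, 8.22 and 5.01 CPM in KO, against 0.895, 1.43 and 0.989 CPM in WT. Its KO replicate 2 was the highest library, and every KO library lay above every WT library (log2 2.45, SE 0.24, adjusted p = 5.16e-06). Peg3, a zinc finger gene (chr7:6703892-6730431, minus strand; promoter printed above), had 1.76, 1.75 and 1.43 CPM in KO, against 0.579, 0.0604 and 0.297 CPM in WT (log2 2.35, SE 0.47, adjusted p = 0.00125). Mest, an alpha/beta hydrolase gene of mesoderm (chr6:30723547-30748465, plus strand), was lower in level, with 0.676, 0.499 and 0.523 CPM in KO, against 0.0827, 0.242 and 0.198 CPM in WT. The Mest groups did not overlap (log2 1.68, SE 0.42, adjusted p = 0.0055; 0.234 when all 18 primary libraries were fitted together). Mest shares 912 exon bases with Copg2 on the opposite strand, and the treatment of strand in counting is not given, so reads of the 2 may fall together. Copg2 averaged 92.4 ± 1.55 CPM in KO and 98.6 ± 3.83 CPM in WT (SD, n = 3 each).

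H13 and Mcts2 form a nested pair: the intronless Mcts2 (chr2:152687035-152687946) lies in an intron of H13 (chr2:152669461-152708670) on the same strand, with no shared exon bases. The pair, like Phlda2 next, is given in full after its values were seen. Mcts2 had 23.7, 23.6 and 24.5 CPM in KO, against 13.9, 12.3 and 12.95 CPM in WT (log2 0.85, SE 0.07, adjusted p = 1.21e-06). H13 had 94.0, 92.4 and 88.7 CPM in KO, against 131.8, 129.6 and 132.5 CPM in WT (log2 -0.54, SE 0.04, adjusted p = 8.47e-07). Neither gene's groups overlapped, and the directions were opposite. The ratio of Mcts2 to H13 counts within a library was 0.252, 0.255 and 0.276 in KO, against 0.105, 0.0947 and 0.0977 in WT. Mcts2 is a near copy of Mcts1 and reads could be shared between them. Mcts1 had 30.6, 30.1 and 28.6 CPM in KO, against 31.9, 26.9 and 32.3 CPM in WT, overlapping ranges.

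Phlda2, a pleckstrin homology protein that limits placental growth in mouse, had 4.68, 4.74 and 4.52 CPM in KO, against 8.86, 8.11 and 7.30 CPM in WT. It fell by 0.82 on the log2 scale (SE 0.11, adjusted p = 6.54e-05), with every KO library below every WT library. Phlda2, Cdkn1c and Ascl2 lie in the same cluster on chromosome 7 as Kcnq1, a potassium channel, Slc22a18, Nap1l4 and the noncoding Kcnq1ot1. Of these 7, Cdkn1c and Kcnq1 were higher, as was Ascl2, which passed the filter only through KO. Phlda2 and Slc22a18 were lower, and Nap1l4 (adjusted p = 0.0541, edgeR) and Kcnq1ot1 (adjusted p = 0.141) did not pass. Kcnq1 averaged 28.9 ± 0.764 CPM in KO and 21.1 ± 2.29 CPM in WT (SD, n = 3 each; log2 0.43, adjusted p = 0.000661, and 0.057 in the fit on all 18 libraries). Kcnq1ot1, which runs antisense to Kcnq1 and shares 121 exon bases with it, had 0.554, 0.831 and 0.456 CPM in KO, against 0.372, 0.287 and 0.480 CPM in WT, and its groups overlapped.

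The other members that passed lay in several clusters and moved in both directions. Ndn, a MAGE family growth suppressor of neurons, averaged 2.15 ± 0.217 CPM in KO and 1.17 ± 0.257 CPM in WT (SD, n = 3 each; log2 0.86, adjusted p = 0.00514). Plagl1, a zinc finger factor that can arrest the cell cycle (log2 0.35), Inpp5f, a phosphoinositide phosphatase (0.29), and Commd1, a regulator of NFkB and copper handling (0.20), were higher. Impact, which restrains the eIF2 kinase GCN2, averaged 9.62 ± 0.319 CPM in KO and 13.3 ± 3.24 CPM in WT (log2 -0.49, adjusted p = 0.0126). Slc22a18 (log2 -0.29), Trappc9, a vesicle tethering subunit (-0.25), the ubiquitin ligase Ube3a (-0.17) and Copg2 (-0.12) were lower. Without KO replicate 1, WT replicate 2 or WT replicate 3, Slc22a18 no longer passed (adjusted p = 0.0753, 0.0578 and 0.0948). Copg2 passed only with all libraries or without WT replicate 1 (otherwise 0.0696 to 0.122), and Plagl1 only with all or without WT replicate 3 (otherwise 0.0559 to 0.109). In the fit on all 18 primary libraries 10 of the 18 calls no longer passed. Beside Mest and Kcnq1 these were Ndn (adjusted p = 0.126), Inpp5f (0.0563), Plagl1 (0.547), Commd1 (0.266), Slc22a18 (0.254), Trappc9 (0.12), Ube3a (0.304) and Copg2 (0.288). Ube3a did not pass without WT replicate 1 (0.133), WT replicate 3 (0.0892) or KO replicate 3 (0.136). Gnas, Zrsr1, Airn, Ppp1r9a, Mkrn3, Nap1l4 and Kcnq1ot1 did not pass.

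**Figure D2:**
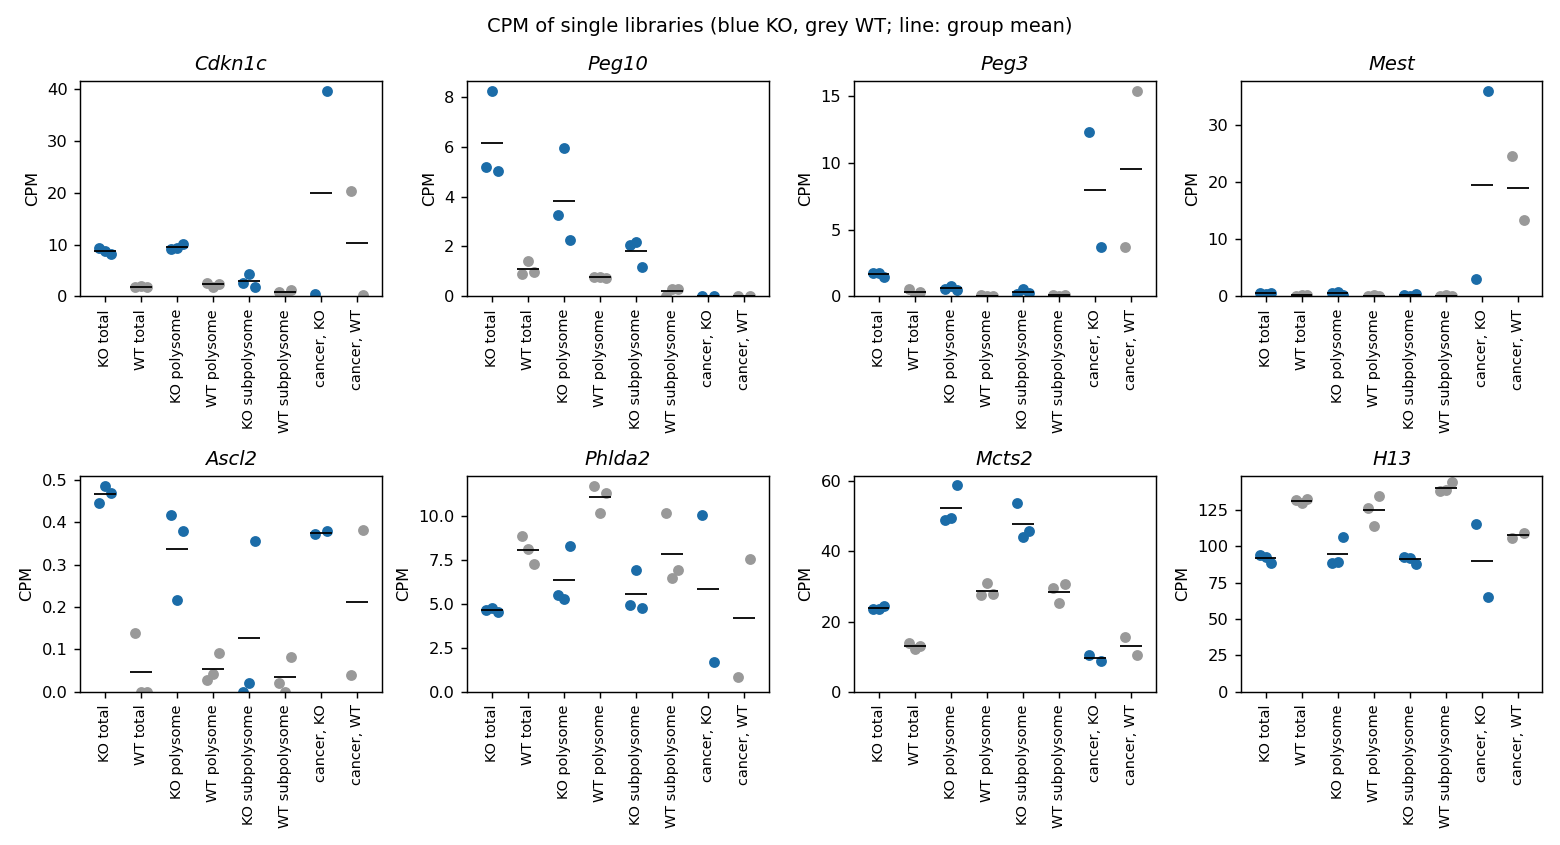
CPM of 8 imprinted genes in single libraries (points) with group means (lines), each axis starting at 0, KO groups in blue and WT groups in grey, cancer groups as labelled. In primary organoids Cdkn1c, Peg10 and Mcts2 lay higher and H13 lower in each KO group than in its WT group, while the cancer libraries of a label lay far apart for Cdkn1c, Peg3, Mest and Phlda2.

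Genes outside the list that read or keep imprints were compared as well. Of 19 tested genes of a list of imprint maintenance machinery, chosen with earlier results known, 7 were higher and 1 lower in KO. Of all genes 27.0% were higher and 26.3% lower (53.2% in either direction), so this list was not called more often than all genes. Dnmt3l, a cofactor of de novo DNA methylation, had 9.67, 10.4 and 11.5 CPM in KO, against 2.26, 2.05 and 2.84 CPM in WT (log2 2.12, SE 0.14, adjusted p = 1.82e-07). Uhrf1 (log2 1.26), Hells (0.65) and Dnmt1 (0.55), which maintain methylation through replication, were higher, and the chromatin remodeller Atrx (-0.31) was lower. A further list of imprinted genes held 26 tested genes, of which 6 were higher and 11 lower, among them H19 (log2 4.66) and Igf2 (3.45), Cobl (0.72), Cd81 (-1.02) and Pon3 (-1.23). Beside these changes, 9 of the 12 bladder urothelium markers were higher and 2 lower in KO total RNA (median log2 0.50), and their sum was 13560 to 14400 CPM in KO and 11190 to 13050 CPM in WT. In polysomes 7 of them were higher and 2 lower, and in subpolysomes 7 higher and 1 lower. Summed smooth muscle markers were 20.3 to 21.97 CPM in KO and 5.96 to 6.74 CPM in WT, with 5 of the 6 under 1 CPM in every library and Acta2 the exception. Summed fibroblast markers were 1.92 to 2.10 CPM in KO and 3.58 to 4.53 CPM in WT, with 7 of 8 under 1 CPM. Summed immune markers were 22.3 to 24.6 CPM in KO and 9.89 to 11.5 CPM in WT, with 6 of 7, Ptprc included, under 1 CPM. Their part in the differences was not tested.

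In the polysome fraction, which holds mRNAs carrying several ribosomes, the leading members differed between KO and WT as they did in total RNA. Of 25 members tested 8 were higher and 3 lower in KO, against 14.9% and 13.8% of 13066 genes. All 3 KO libraries lay above all 3 WT libraries for 10 members and below them for 3, against 22.2% and 17.8% of all genes. The higher ones were Cdkn1c, Ascl2, Kcnq1, Peg10, Mest, Peg3, Ndn and Mcts2, and the lower ones Phlda2, H13 and Impact. Ascl2, Mest and Peg3 passed the filter there only through KO, so they had to differ, although they are counted among the 8 higher. Fitted on all 18 primary libraries, 2 of the 11 calls no longer passed, those of Ascl2 (adjusted p = 0.0839) and Mest (0.0583).

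Cdkn1c had 9.13, 9.34 and 10.2 CPM in KO polysomes, against 2.57, 1.88 and 2.48 CPM in WT polysomes (log2 2.01, SE 0.19, adjusted p = 4.22e-07). Peg10 had 3.28, 5.94 and 2.24 CPM in KO polysomes, against 0.785, 0.796 and 0.755 CPM in WT polysomes (log2 2.24, SE 0.31, adjusted p = 3.33e-05). The KO libraries of Peg10 were spread widely, but none reached down to a WT library. Peg3 had 0.561, 0.764 and 0.481 CPM in KO polysomes, against 0.0841, 0.0412 and 0.0154 CPM in WT polysomes (fitted log2 3.57, SE 0.55). These Peg3 values are given as a description, because Peg3 passed the filter only through KO. Mcts2 had 49.0, 49.5 and 58.9 CPM in KO polysomes, against 27.55, 31.0 and 27.95 CPM in WT polysomes (log2 0.82, SE 0.14, adjusted p = 0.000224). Groups were separate for both genes. The ratio of Mcts2 to H13 counts was 0.554, 0.555 and 0.554 in KO polysomes, against 0.219, 0.272 and 0.208 in WT polysomes. Same-numbered KO and WT polysome libraries deviated together. With the replicate as a block Ube3a, at 50.3 ± 9.70 CPM in KO and 63.0 ± 6.85 CPM in WT (SD, n = 3 each), had log2 -0.38 and adjusted p = 0.00903, against 0.0703 without the block. Kcnq1 did not pass without KO replicate 2 (adjusted p = 0.0663) or WT replicate 2 (0.067), nor H13 without KO replicate 1 (0.102), KO replicate 2 (0.0966) or WT replicate 3 (0.13).

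In the subpolysome fraction, which holds mRNAs with few or no ribosomes, fewer members passed. Of 24 tested, Cdkn1c, Peg10, Nnat and Mcts2 were higher and H13 was lower in KO, 4 and 1 members, against 11% of 12645 genes in each direction. All 3 KO libraries lay above all 3 WT libraries for 6 members and below them for 2, against 15.0% and 18.9% of all genes. Mest, Ndn and Nnat passed the filter only through KO, so their KO values had to be the higher ones. Nnat is nevertheless counted among the 4 higher. Cdkn1c had 2.56, 4.29 and 1.91 CPM in KO, against 0.933, 0.133 and 1.22 CPM in WT (log2 1.94, SE 0.54, adjusted p = 0.00994; 0.064 without KO replicate 2). Nnat, a small membrane proteolipid of neuroendocrine cells, had 0.465, 0.547 and 2.32 CPM in KO, against 0.170, 0.133 and 0.248 CPM in WT. KO replicate 3 stood far above the others. That library also had the lowest depth, 39245248 counts, and 5.59% of its counts in the ribosomal RNA gene Rn45s, against 0.439 to 1.72% in the other 5 subpolysome libraries, and the part of this in the Nnat value was not tested. Nnat passed with all libraries (log2 2.60, SE 0.85, adjusted p = 0.0282) and not without KO replicate 3 (log2 1.45, adjusted p = 0.374), WT replicate 1 (0.0803) or WT replicate 2 (0.0921). Peg10 had 2.07, 2.19 and 1.20 CPM in KO, against 0, 0.288 and 0.310 CPM in WT (log2 3.16, SE 0.77, adjusted p = 0.00378).

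**Figure D3:**
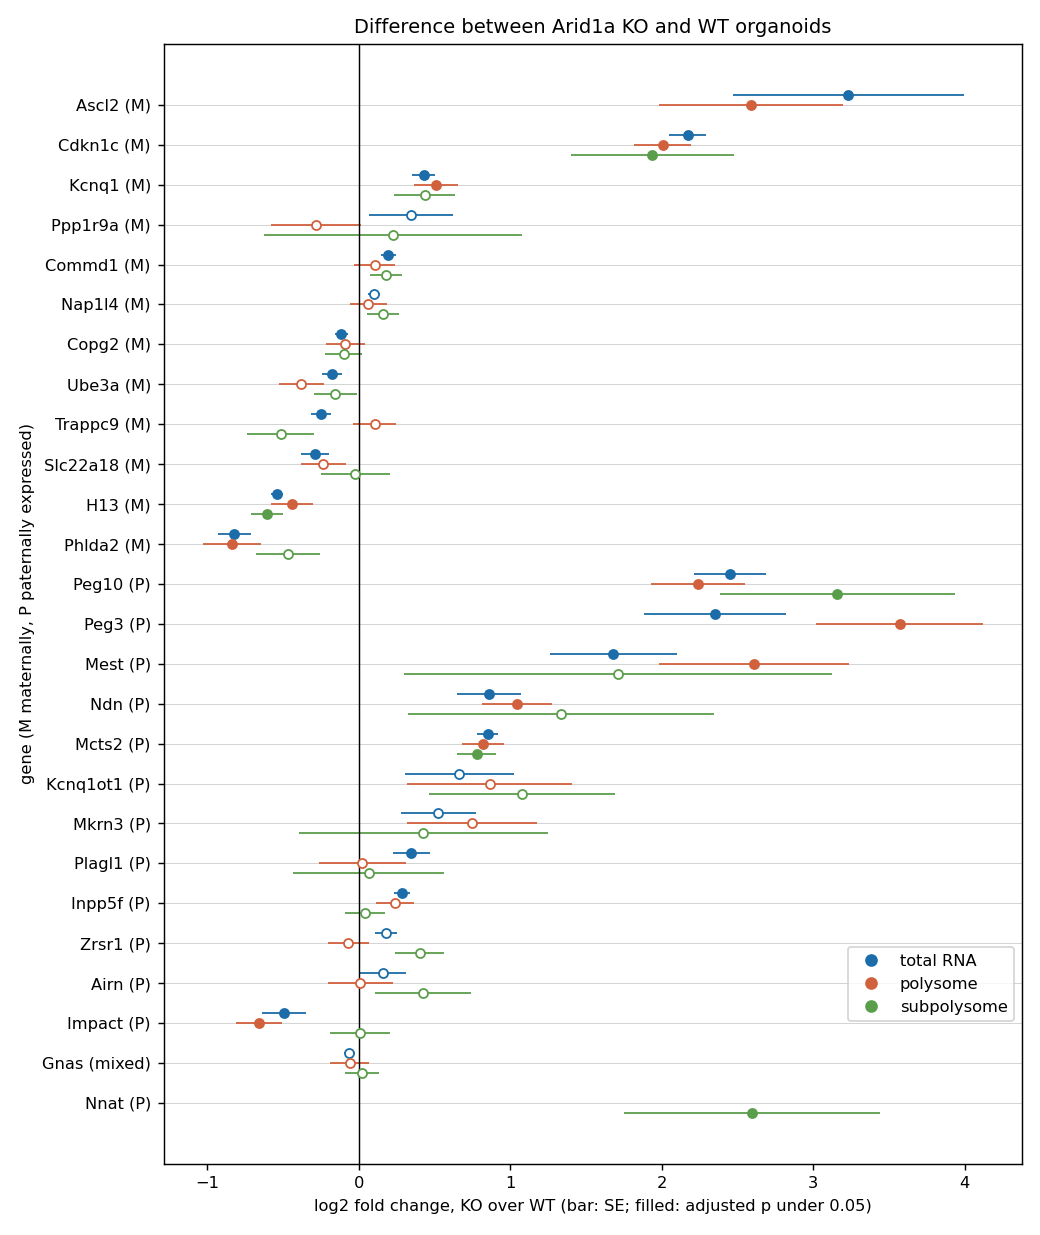
Log2 fold change of KO over WT, with its standard error, for the imprinted genes tested in total RNA, polysomes and subpolysomes (3 libraries per group), filled where adjusted p was under 0.05. Cdkn1c, Peg10, Mcts2 and H13 passed in all 3 kinds of RNA, with the first 3 higher and H13 lower in KO.

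The polysome to subpolysome ratio, a measure of ribosome loading relative to other mRNAs, was then compared between the genotypes. None of the 26 members tested differed by edgeR's quasi-likelihood test, and 1 of all 13392 genes (0.00747%) did; 758 genes had an unadjusted p under 0.05, and DESeq2 called 12 genes. Members with an unadjusted p under 0.05 were Impact (log2 -0.65, SE 0.23, adjusted p = 0.853), Trappc9 (0.64, SE 0.25), Nnat (-3.45, SE 1.46) and Zrsr1 (-0.46, SE 0.20), the last 3 with adjusted p = 0.877. For Cdkn1c the ratio differed by log2 0.08 with SE 0.58, and for Mcts2 by 0.06 with SE 0.20. Spread this wide leaves moderate differences undetectable in these libraries.

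Within each genotype the members took different places along the gradient. Of the 26 tested, 5 were higher and 5 lower in polysomes than in subpolysomes in KO, against 31.7% and 29.9% of all genes (61.6% in either direction), and 8 were higher and 4 lower in WT, against 32.8% and 30.9% (63.7% in either direction). These values are relative to the other genes of a library. Scaled by library totals alone, the median of all genes moved up to log2 0.90 in KO and 0.84 in WT, and the calls over all genes went to 8207 higher and 1350 lower in KO and 7954 and 1616 in WT. On that scale 13 members were higher and 2 lower in KO, and 17 higher and 0 lower in WT. In plain CPM, the typical gene with at least 1 CPM was at 1.92 times its subpolysome level in KO polysomes and at 1.86 times in WT polysomes.

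Ndn had the highest difference. It had 3.68, 3.09 and 3.35 CPM in KO polysomes, against 0.291, 0.252 and 0.663 CPM in KO subpolysomes (log2 2.20, SE 0.52, adjusted p = 0.000946). In WT it had 1.5, 1.32 and 1.93 CPM in polysomes, against 0.0212, 0.243 and 0.206 CPM in subpolysomes (log2 2.48, SE 0.57, adjusted p = 0.000718). Polysome libraries lay above subpolysome libraries in both genotypes. Nap1l4 had 230.9, 228.4 and 198.7 CPM in KO polysomes, against 55.5, 64.2 and 63.7 CPM in KO subpolysomes. In WT it had 219.8, 203.1 and 187.7 CPM in polysomes, against 60.4, 57.7 and 49.2 CPM in subpolysomes, and no groups overlapped. Its log2 differences were 0.96 in KO (adjusted p = 8.12e-08) and 1.04 in WT (2.19e-08). Peg10 had a fitted difference of log2 1.11 in WT and 0.17 in KO and passed in neither (adjusted p = 0.12 and 0.792). Cdkn1c passed in neither by edgeR's test (adjusted p = 0.129 in WT and 0.0669 in KO). With same-numbered fractions as a block it was higher in polysomes in both (0.0215 in WT and 0.0164 in KO).

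Kcnq1ot1, a nuclear noncoding RNA, had the lowest difference in WT and, after Nnat, the next lowest in KO. It had 0.457, 0.490 and 0.321 CPM in KO polysomes, against 0.697, 1.62 and 1.53 CPM in KO subpolysomes (log2 -2.48, SE 0.64, adjusted p = 0.00204). In WT it had 0.351, 0.288 and 0.0308 CPM in polysomes, against 0.615, 0.775 and 0.454 CPM in subpolysomes (log2 -2.29, SE 0.66, adjusted p = 0.00478). Its groups did not overlap in either genotype. Mkrn3, a ring finger protein that holds back puberty, was lower in WT polysomes (0.210, 0.220 and 0.339 CPM) than in WT subpolysomes (0.572, 0.775 and 0.413 CPM; log2 -2.0, adjusted p = 0.0278), and in KO its difference of log2 -1.69 had adjusted p = 0.0544. The WT call of Mkrn3 was lost without WT subpolysome replicate 2 (0.0856), WT polysome replicate 1 (0.0892) or WT polysome replicate 2 (0.0832). Nnat had 0.131, 0.0144 and 0.0146 CPM in KO polysomes, against 0.465, 0.547 and 2.32 CPM in KO subpolysomes (log2 -5.20, SE 1.09). It passed the filter in KO only through the subpolysome libraries, so it had to differ, although it is counted among the 5 lower. In WT Nnat had 0.168, 0 and 0.123 CPM in polysomes, against 0.170, 0.133 and 0.248 CPM in subpolysomes (log2 -1.75, adjusted p = 0.145). Airn, another long noncoding RNA, averaged 4.44 ± 0.266 CPM in KO polysomes and 3.34 ± 1.07 CPM in KO subpolysomes, and did not pass in either genotype (adjusted p = 0.135 in KO and 0.853 in WT).

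The nested pair lay toward the subpolysome side of the typical mRNA. Mcts2 averaged 52.5 ± 5.58 CPM in KO polysomes and 48.0 ± 5.17 CPM in KO subpolysomes (log2 -0.75, adjusted p = 0.000104), and 28.8 ± 1.90 CPM in WT polysomes and 28.5 ± 2.92 CPM in WT subpolysomes (log2 -0.81, adjusted p = 4.51e-05; SD, n = 3 each). The paralogue Mcts1 stood at 100.3 to 105 CPM in KO polysomes against 19.1 to 20.4 CPM in KO subpolysomes. H13 averaged 94.7 ± 10.1 CPM in KO polysomes and 90.9 ± 2.59 CPM in KO subpolysomes, and 124.8 ± 10.4 CPM in WT polysomes and 140.1 ± 3.48 CPM in WT subpolysomes (log2 -0.82 in KO and -0.9975 in WT). With library totals alone the sign turned for Mcts2 (0.13 in KO and 0.02 in WT), for H13 in KO (0.06) and for Phlda2 in KO (0.19).

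The remaining calls were under 1 on the log2 scale in size, and most were lost without 1 or another library. Gnas (log2 0.28 in KO and 0.35 in WT) and Slc22a18 (0.56 and 0.76) were higher in polysomes in both genotypes, Trappc9 (0.46) was higher in KO, and Ube3a (0.46), Zrsr1 (0.59), Commd1 (0.33) and Impact (0.38) were higher in WT. Phlda2 was lower in KO (-0.67). In KO, Gnas did not pass without any of KO subpolysome replicates 1 and 3, KO polysome replicates 1 and 2, WT subpolysome replicate 2 and WT polysome replicates 2 and 3 (adjusted p = 0.0501 to 0.141). Slc22a18 did not pass without KO subpolysome replicate 1 (0.146), KO subpolysome replicate 3 (0.151) or KO polysome replicate 3 (0.127), and Trappc9 not without KO subpolysome replicate 2 (0.108) or KO polysome replicate 3 (0.127). Phlda2 did not pass without KO subpolysome replicate 2 (0.0645), KO polysome replicate 1 (0.0598) or KO polysome replicate 2 (0.0641). In WT, Ube3a did not pass without WT subpolysome replicate 1 (0.0516) or WT polysome replicate 3 (0.0649), and Commd1 not without WT subpolysome replicate 1 (0.0536), WT polysome replicate 2 (0.0766) or WT polysome replicate 3 (0.109). Impact did not pass without any single WT subpolysome library, WT polysome replicates 1 or 2, or KO polysome replicates 1 or 2 (0.0514 to 0.145).

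**Figure D4:**
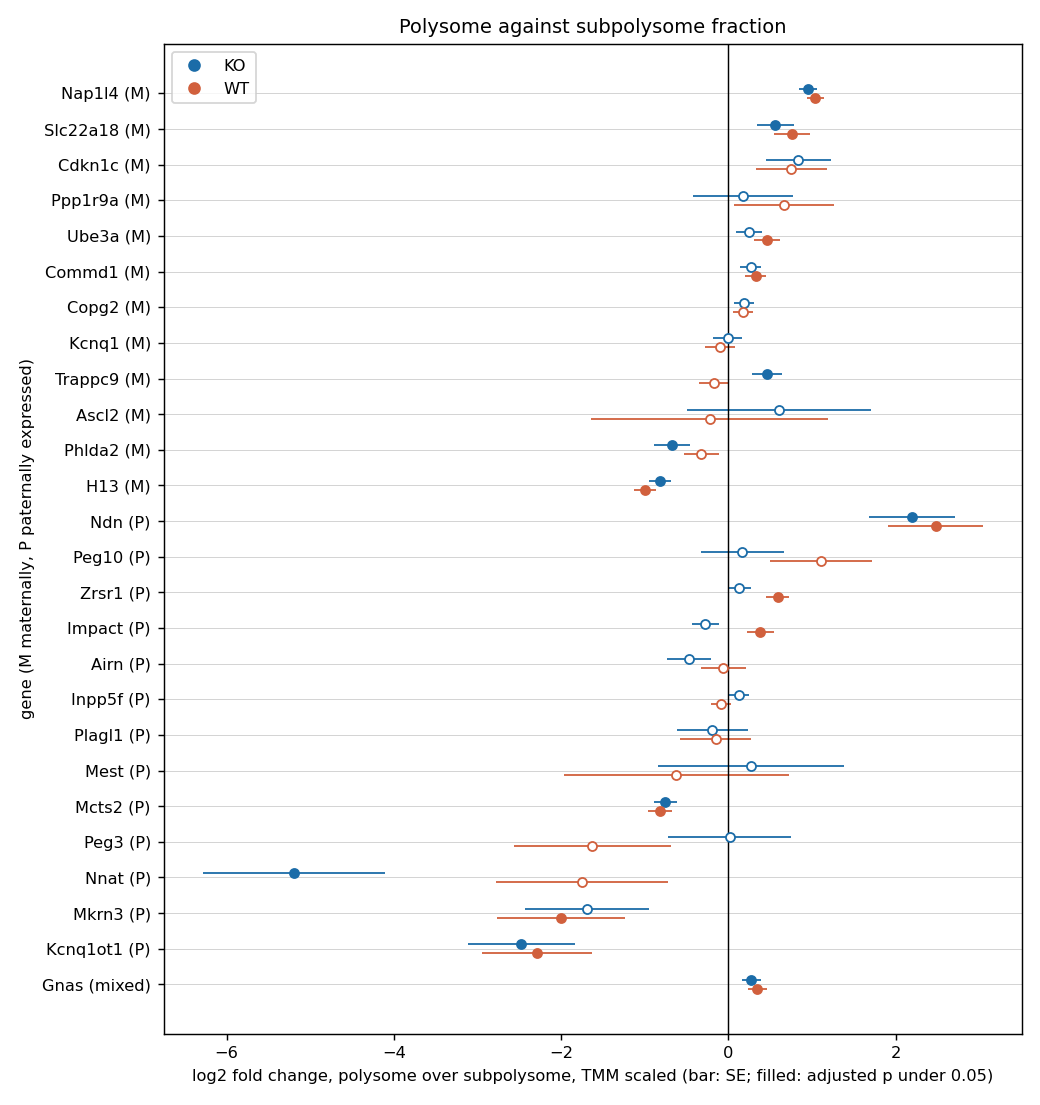
Log2 fold change of polysome over subpolysome, with its standard error, for the 26 imprinted genes tested, KO and WT separately and relative to other mRNAs of the same libraries, filled where adjusted p was under 0.05. Ndn lay highest in both genotypes, and Kcnq1ot1 was below -2 in both.

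Polysomes were also set against total RNA over 12 libraries with genotype as a term, a comparison added after the data were seen. Of 27 members tested 11 were higher and 7 lower in polysomes, against 37.1% and 38.7% of 13507 genes (75.8% in either direction). Commd1 had the highest difference, and Peg3 and Trappc9 had the lowest. Commd1 had 135.6, 131 and 161 CPM in KO polysomes, against 49.2, 47.8 and 48.4 CPM in KO total RNA. In WT it had 121, 133 and 132 CPM in polysomes, against 42.8, 40.5 and 41.7 CPM in total RNA (log2 1.68 over both genotypes, SE 0.08, adjusted p = 4.98e-12). Polysome libraries were all higher than total RNA libraries. Trappc9 had 11.85, 11.7 and 12.99 CPM in KO polysomes, against 40.5, 40.5 and 42.9 CPM in KO total RNA, and 10.96, 11.08 and 10.98 CPM in WT polysomes, against 44.7, 53.0 and 47.3 CPM in WT total RNA. It was lower in polysomes throughout (log2 -1.86, SE 0.07, adjusted p = 1.66e-12). Peg3 (log2 -1.98), Mkrn3 (-1.56) and Plagl1 (-1.13) were lower in polysomes as well, and Mcts2 (1.23), Airn (0.74) and Zrsr1 (0.69) were higher. Scaling by library totals alone moved the median of all genes to log2 -0.11. Commd1 and Zrsr1 share 412 exon bases on opposite strands, so reads of the 2 may fall together.

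Between cancer and primary organoids, imprinted genes were called about as often as other genes. Over 4 cancer and 6 primary total RNA libraries, 27 members were tested, of which 8 were higher and 12 lower in cancer, against 38.8% and 39.0% of 14305 genes (77.8% in either direction, and 74.1% of the members). Among the 12 lower, Kcnq1, Peg10, Ndn, Mkrn3 and Ppp1r9a passed the filter only through the primary libraries, so they had to differ, and their values are given as a description. No aligner is named for the cancer libraries, while Bowtie is named for the primary ones, and their source differs, so cancer state and the set of libraries cannot be told apart. Neural and Schwann cell markers summed to 6.27 to 106 CPM in the cancer libraries and 2.13 to 3.44 CPM in primary total RNA, with 6 of the 8 under 1 CPM in every cancer library and Snap25 and Tubb3 the exceptions. Their part in the differences was not tested.

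Members of the Kcnq1 domain moved apart. Kcnq1 had 0 and 3 counts in the cancer libraries labelled KO and 0 and 1 counts in those labelled WT, against 18.9 to 29.7 CPM in the 6 primary libraries (fitted log2 -10.29, SE 0.44). Its antisense noncoding RNA Kcnq1ot1 had 24.6 and 29.8 CPM in the cancer libraries labelled KO and 17.9 and 20.5 CPM in those labelled WT, against 0.287 to 0.831 CPM in the primary libraries. It rose by 5.63 on the log2 scale (SE 0.22, adjusted p = 1.55e-07). The ratio of Kcnq1ot1 to Kcnq1 counts was 549.7 and 1070 in the 2 cancer libraries with any Kcnq1 count, against 0.0122 to 0.0280 in the primary libraries. Slc22a18 had 0.805 and 1.32 CPM in the cancer libraries labelled KO and 0.0789 and 2.16 CPM in those labelled WT, against 17.4 to 25.4 CPM in primary (log2 -4.17, adjusted p = 0.000654), while Nap1l4 was slightly higher (0.32, adjusted p = 0.00932).

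Of the paternally expressed genes, Mest, Peg3, Impact and Plagl1 were high in cancer. Mest had 3.12 and 35.9 CPM in the cancer libraries labelled KO and 24.6 and 13.4 CPM in those labelled WT, against 0.0827 to 0.676 CPM in primary (log2 6.0, SE 0.67, adjusted p = 5.79e-05). Peg3 had 12.3 and 3.70 CPM in those labelled KO and 3.69 and 15.4 CPM in those labelled WT, against 0.0604 to 1.76 CPM in primary (log2 3.67, adjusted p = 0.000754). Impact had 84.9 and 66.4 CPM in those labelled KO and 79.4 and 94.9 CPM in those labelled WT, against 9.33 to 16.9 CPM in primary (log2 2.91, adjusted p = 3.9e-07). For each of the 3 every cancer library lay above every primary library. Plagl1 had 19.2 and 33.7 CPM in those labelled KO and 11.98 and 35.6 CPM in those labelled WT, against 4.61 to 6.98 CPM in primary (log2 2.17, adjusted p = 0.000207). Ube3a, maternally expressed in neurons, was also higher, at 146 to 166 CPM in cancer and 44.9 to 56.1 CPM in primary (log2 1.71, adjusted p = 1.03e-07).

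Other paternally expressed genes were at or near 0 in the cancer libraries. Ndn had no count in any of the 4, against 718 counts in the 6 primary libraries, at least 115-fold lower with a floor of 3 counts over the group. Peg10 had 1 count in the library labelled KO 2 and 0 in the others, against 3.67 CPM pooled over primary, a primary to cancer ratio of 759 (95% interval 136 to 29990, counting error only). Mkrn3 had counts only in the library labelled KO 2, at 0.108 CPM, against 0.710 to 1.47 CPM in primary (fitted log2 -6.58). Each of the 3 lay lower in every cancer library than in any primary library. Airn had 0.145 and 0.0541 CPM in those labelled KO and 0.355 and 0.268 CPM in those labelled WT, against 2.43 to 3.27 CPM in primary (log2 -3.90, adjusted p = 4.13e-06). Ppp1r9a, the maternally expressed gene beside Peg10 that encodes neurabin, had 0 and 0.0180 CPM in those labelled KO and 0.0592 and 0.0766 CPM in those labelled WT, against 0.710 to 1.59 CPM in primary (fitted log2 -5.17). Sgce, the third gene of that cluster, had 0 counts in cancer and 33 in primary (at least 5.29-fold lower over the group). Of the 33, 27 were in KO and 6 in WT, the latter all in WT replicate 2. It passed the filter only through primary KO, its cancer and primary groups overlapped, and its edgeR test did not pass (adjusted p = 0.068).

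Smaller falls in cancer were those of Gnas (log2 -0.90), Mcts2 (-0.59), Zrsr1 (-0.55), Trappc9 (-0.42) and Inpp5f (-0.33), and Nnat was higher (0.92). Zrsr1 did not pass without any single primary library, without cancer WT replicate 2 or without cancer KO replicate 1 (adjusted p = 0.0623 to 0.121). Nnat did not pass without WT total replicate 1, KO total replicates 1 or 2, cancer WT replicate 2 or cancer KO replicate 2 (0.0576 to 0.103). H13, Copg2, Commd1, Phlda2, Ascl2 and Cdkn1c did not pass.

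**Figure D5:**
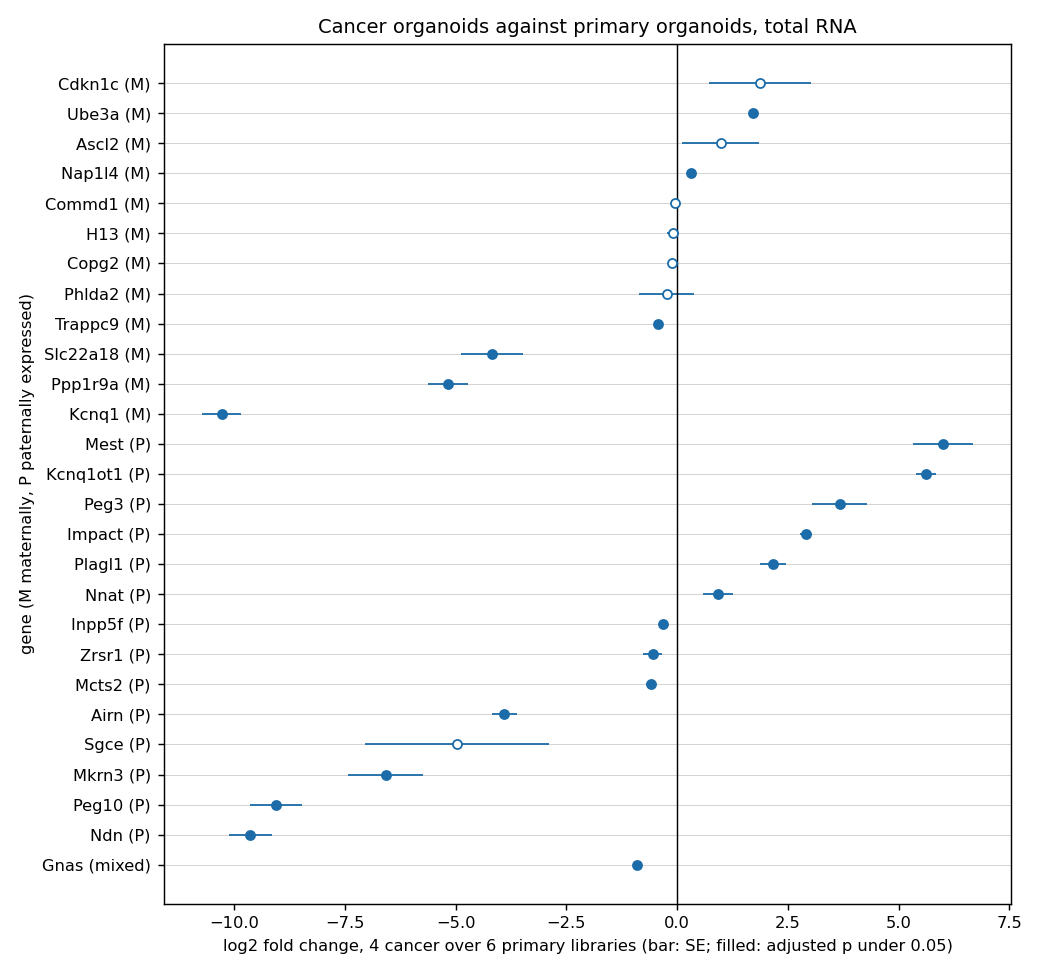
Log2 fold change of 4 cancer over 6 primary total RNA libraries, with its standard error, for the 27 imprinted genes tested, filled where adjusted p was under 0.05. Mest, Kcnq1ot1, Peg3, Impact and Plagl1 were highest among those that passed, and Kcnq1, Ndn and Peg10, with 0 to 3 counts in each cancer library, were lowest, so their fitted values depend on the prior count.

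Between the cancer libraries labelled KO and those labelled WT, none of the 21 members tested differed by edgeR's quasi-likelihood test, nor did any of 12681 genes (0% called). Of all genes 96 had an unadjusted p under 0.05, and DESeq2 called 10. Members not overlapping between the 2 labels were 3 higher and 5 lower in those labelled KO, against 7.85% and 13.2% of all genes. Libraries with the same label lay far apart for Cdkn1c and Phlda2 of the Kcnq1 cluster. Cdkn1c had 0.392 and 39.6 CPM in the libraries labelled KO 1 and KO 2, against 20.4 and 0.191 CPM in those labelled WT 1 and WT 2. Phlda2 had 10.0 and 1.71 CPM in KO 1 and KO 2, against 0.829 and 7.56 CPM in WT 1 and WT 2. The libraries labelled KO 2 and WT 1 were thus high in Cdkn1c and low in Phlda2, and KO 1 and WT 2 the reverse. In that cluster Nap1l4 divided the libraries as Phlda2 did, by a smaller margin. It had 200.6 and 200.7 CPM in KO 1 and WT 2, against 176.2 and 149.4 CPM in KO 2 and WT 1. Ascl2, Slc22a18 and Kcnq1ot1 did not divide the libraries this way. Mest and Peg3, both higher in KO in primary total RNA, went opposite ways. Mest had 35.9 and 24.6 CPM in KO 2 and WT 1, against 3.12 and 13.4 CPM in KO 1 and WT 2. Peg3 had 3.70 and 3.69 CPM in KO 2 and WT 1, against 12.3 and 15.4 CPM in KO 1 and WT 2. Arid1a, at 201 and 64.1 CPM in KO 1 and KO 2, against 79.2 and 228 CPM in WT 1 and WT 2, was low in the same 2 libraries that were high in Cdkn1c. The lack of calls between the labels therefore rests on labels that the Arid1a counts put in doubt.

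The KO effect in cancer as labelled was last set against that in primary total RNA, also a comparison added after the data were seen. Of 27 members only Mcts2 passed (log2 difference of effects -1.28, SE 0.24, adjusted p = 0.0354), against 1.60% of 14305 genes lower, 1.53% higher and 3.13% in either direction. Mcts2 had 10.4 and 8.73 CPM in the cancer libraries labelled KO, against 15.6 and 10.5 CPM in those labelled WT, while in primary organoids KO was higher. It did not pass when any single primary library was left out (adjusted p = 0.0633 to 0.111), and its direction in cancer rests on the labels.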

How the data were processed

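The authors deposited raw read counts per gene symbol for total RNA, polysome and subpolysome libraries, whole numbers with no normalization. Per the submitters' processing notes, HTSeq and mm10 are named for all libraries and Bowtie for the primary organoids. Versions, the counting annotation and the treatment of strand and multi-mapping reads are not given, so overlapping antisense genes may share reads. Groups came from the labels. Each comparison was fitted on its own libraries with edgeR 4.0.16 in R 4.3.3: TMM scaling, filterByExpr (minimum count 10, other settings at their defaults), the quasi-likelihood F test, and Benjamini-Hochberg adjustment over all genes tested with a threshold of 0.05. The fraction comparisons used 12 libraries and did not pair the fractions of the same genotype and replicate number. Deviations of such polysome and subpolysome pairs correlated at r = 0.057 to 0.158, and a block on these pairs was an alternative. The standard error was the log2 fold change divided by the square root of its F statistic. The same code was tested on simulated counts. Coordinates and exon lengths came from GENCODE M21 (GRCm38), which matched all 35 members by symbol. The members, gene lists, markers and tests were chosen with earlier results of these data known. Single-library values were given for members past the threshold at log2 of at least 1 (total RNA) or 2 (cancer) in size, and for the 3 highest and 3 lowest polysome to subpolysome differences in WT.

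Same-numbered polysome libraries had correlated deviations from their group means (r = 0.257, 0.188 and 0.200), all over 0.1, so the replicate block is given for polysomes where it changes a call. Alternatives were DESeq2 1.42.0, RLE factors, library totals alone, no filter, the replicate block, a fit on all 18 primary libraries and leaving out each library. All 5 endothelial markers were under 1 CPM in every total RNA and polysome library.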

Additional observations from a re-analysis of the deposited data

Results flagged for a closer look

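The KO effect on Mcts2 differed between the cancer and primary organoids by a test of the difference itself, the interaction of genotype and kind of organoid over 10 total RNA libraries. The difference was -1.28 on the log2 scale (SE 0.24, adjusted p = 0.0354, edgeR). Mcts2 was at 9.57 ± 1.19 CPM in the cancer libraries labelled KO and 13.04 ± 3.61 CPM in those labelled WT (SD, n = 2 each), and at 23.9 ± 0.479 CPM in KO and 13.03 ± 0.793 CPM in WT primary total RNA (SD, n = 3 each). The call was lost when any 1 of the 6 primary libraries was left out (adjusted p = 0.0633 to 0.111), and the Arid1a counts of some cancer libraries went against their labels.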

How the results depend on the processing

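Fitted on all 18 primary libraries, total RNA gave 5 members higher and 3 lower in KO, against 11 and 7 on its own 6 libraries, and subpolysomes gave 2 lower against 1. Single members lost 10 of 18 calls in that fit in total RNA, 2 of 11 in polysomes and 0 of 5 in subpolysomes. Leaving out 1 library gave 10 to 11 higher and 4 to 6 lower in total RNA, with 4 without WT replicate 3. In polysomes against subpolysomes, library totals alone gave 13 higher and 2 lower in KO, against 5 and 5, and 17 and 0 in WT, against 8 and 4. That scaling turned the sign of Phlda2 (0.19), Mcts2 (0.13) and H13 (0.0595) in KO and of Mcts2 (0.0189) in WT. Leaving out 1 library gave 3 to 7 higher and 4 to 6 lower in KO, with 3 without KO subpolysome replicate 1 or KO polysome replicate 3. In the KO effect in cancer against primary, DESeq2 gave 3 lower against 1, and leaving out 1 library 0 to 1 higher and 0 to 4 lower, with 0 lower without any 1 primary library, 2 without the library labelled cancer WT 2 or cancer KO 2, and 4 without that labelled cancer KO 1. The cause of these moves was not tested. No member that passed changed direction when a library was left out. Outside polysomes same-numbered primary KO and WT libraries had r = -0.068 to 0.149, with only replicate 1 of total RNA over 0.1. In subpolysomes each KO library correlated best with the WT library of its own number (r = 0.028 to 0.068). In edgeR's test the replicate block ended the calls of Copg2 in total RNA (adjusted p = 0.0593) and of Nnat in subpolysomes (0.066). Between polysomes and subpolysomes it added Cdkn1c as higher in KO (0.0164) and in WT (0.0215). In polysomes it changed no call among the members but that of Ube3a. With numbers crossed in the cancer libraries (same-number r = -0.430), the block gave 0 members higher and 0 lower, as without it. Genes under about 10 counts per library could not be compared at this depth.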
